A study of Homo sapiens with 12 samples.

Results

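The N-myc downstream-regulated gene (NDRG) family has 4 genes in humans: NDRG1, NDRG2, NDRG3 and NDRG4. They were taken by symbol from a table of raw RNA-seq counts for 60656 Ensembl gene IDs, in which each symbol matched 1 ID, so 4 of 60656 genes are described here. All 4 members also passed the filter on low counts, which left 19636 genes for testing.

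The study grew 3 established human metastatic melanoma lines, A2058, A375 and SKMEL-5, in hypoxia (1% oxygen) and in normoxia (atmospheric oxygen). The 6 groups were A2058, A375 and SKMEL-5 cells in hypoxia, set against the same 3 lines in normoxia, each with 2 libraries from biological duplicates (12 libraries). The labels give no other agent and no engineered allele in any group, and the sources used here do not give the time spent in 1% oxygen. The libraries were made from total RNA with an mRNA kit.

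NDRG proteins are cytoplasmic and share an alpha/beta hydrolase-like fold without a known hydrolase activity. NDRG1 is named for its repression by MYCN, and its mRNA is a widely used marker of low oxygen that responds to hypoxia-inducible factor (HIF), to iron depletion and to cell stress. NDRG2 is expressed mainly in brain, muscle and other differentiated tissues and is described as a growth restraint in several cancers. NDRG3 protein is destroyed after hydroxylation by the oxygen sensor PHD2 (gene EGLN1) and is stabilised by lactate, so that its known oxygen control acts on the protein. NDRG4 is expressed mainly in heart and brain. The count table measures mRNA only.

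On GRCh38, NDRG1 (ENSG00000104419.17) lies at chr8:133237171-133302022 on the minus strand and NDRG2 (ENSG00000165795.23) at chr14:21016763-21070872 on the minus strand. NDRG3 (ENSG00000101079.21) lies at chr20:36651766-36746078 on the minus strand and NDRG4 (ENSG00000103034.14) at chr16:58462846-58513628 on the plus strand. All 4 are protein-coding, and the longest coding sequences in GENCODE 29 encode 394 residues for NDRG1, 371 for NDRG2, 388 for NDRG3 and 391 for NDRG4.

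How reads were counted, and whether by strand, the sources used here do not say. NDRG2 lies over other annotated genes: TPPP2 on the opposite strand shares 236 exonic bases with it and AL161668.4 shares 173, and both had 0 counts in every library. ARHGEF40, on the opposite strand, overlaps the NDRG2 locus with 0 shared exonic bases and had 777 to 5083 counts, so without a stated strand rule some reads in the NDRG2 locus could belong to either gene. No annotated gene overlapped NDRG1.

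Between members, 57.3% to 66.2% of aligned residues were identical. The longest stretch of identical bases in a pair of members was 17 to 27 bases, and those between NDRG2, NDRG3 and NDRG4 are shown because they bear on whether a read can be told apart between members. All lie in coding sequence and are printed in lower case, 5′ to 3′.
NDRG2 and NDRG4: tacttcctgcaaggcatgggctacatg
NDRG2 and NDRG3: accgaggccttcaagtactt
NDRG3 and NDRG4: caacctgcagctcttct

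Library totals ran from 33831569 to 54202819 counts, and a count of 0 allowed up to 0.0553 to 0.0887 CPM (counts scaled to library size), which covers counting error only. The melanocyte-lineage factor SOX10 was at 765 to 1680 CPM over all libraries. TYR and MLANA, a pigment enzyme and a melanosome antigen, were at 0 in every A375 and every SKMEL-5 library, and the libraries labelled A375 and SKMEL-5 correlated with each other at r = 0.912 to 0.990 (log2 CPM of tested genes) while A375 libraries correlated among themselves at 0.917 to 0.982. MITF, another melanocyte-lineage factor, went the other way, at 17.2 to 28.3 CPM in A375 and 91.3 to 173 CPM in SKMEL-5 libraries. The ranges of SOX10, PMEL, DCT, TYRP1 and S100B overlapped between these labels. The labels were not checked beyond these values. Whether the libraries labelled A375 and SKMEL-5 come from separate lines is in doubt, so the mean over the 3 labelled lines may rest on fewer distinct lines. In each line 1 hypoxic library stood apart from the other 3: A2058 hypoxia 2 (r = 0.936 to 0.966 with the rest of its line, against 0.963 to 0.974 among the rest), A375 hypoxia 1 (0.917 to 0.933, against 0.980 to 0.982) and SKMEL-5 hypoxia 1 (0.928 to 0.951, against 0.970 to 0.978). The summed level of 9 fibroblast markers was 90.3 to 141 CPM in A2058 hypoxia against 30.2 to 35.3 CPM in A2058 normoxia, at most 17.7 against at most 17.5 CPM in A375, and 21.0 to 21.7 against 10.6 to 13.4 CPM in SKMEL-5. The 8 blood cell markers summed to at most 3.72 CPM in any library. The 8 keratinocyte markers summed to 127 to 134 CPM in hypoxia against 115 to 181 in normoxia for A2058. These sums were 102 to 198 against 70.1 to 72.7 CPM for A375 and 113 to 152 against 93.2 to 112 CPM for SKMEL-5. The 10 melanocytic and neural crest genes summed to 3390 to 9120 against 3080 to 3170 CPM for A2058. They summed to 1110 to 1640 against 1470 to 1880 CPM for A375 and 1370 to 1440 against 1370 to 1840 CPM for SKMEL-5. The part of these markers in the NDRG results was not tested.

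NDRG1 rose in hypoxia in the mean of the 3 lines, while no difference of NDRG2, NDRG3 or NDRG4 between oxygen conditions passed the test. NDRG1 had 58654 and 150706 counts in A2058 hypoxia, against 10630 and 1500 in A2058 normoxia. Scaled by the trimmed mean of M-values (TMM), these were 1235 and 4332 CPM in hypoxia, against 273 and 41.3 CPM in normoxia. In A375, NDRG1 had 2246 and 743 CPM in hypoxia, against 74.6 and 74.0 CPM in normoxia. Every hypoxic library of these lines lay above every normoxic one, and the library that stood apart was the higher of its pair in both. In SKMEL-5, NDRG1 had 1997 and 905 CPM in hypoxia, against 120 and 73.4 CPM in normoxia, with the same order. Of all tested genes, 4.86% had both hypoxic libraries above both normoxic ones in every line.

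The mean NDRG1 level was 2783 ± 2190 CPM in A2058 hypoxia against 157 ± 164 CPM in A2058 normoxia (SD, n = 2 each). It was 1494 ± 1062 CPM in A375 hypoxia against 74.3 ± 0.45 CPM in A375 normoxia, and 1451 ± 772 CPM in SKMEL-5 hypoxia against 96.8 ± 33.2 CPM in SKMEL-5 normoxia (SD, n = 2 each). The spread between hypoxic duplicates was therefore wide on the linear scale in every line. Averaged over the 3 lines, NDRG1 was higher in hypoxia by 4.13 ± 0.56 on the log2 scale (SE), or 17.5-fold with a 95% interval of 7.43 to 41.1 (edgeR's quasi-likelihood test, adjusted p = 0.0110). In that comparison 1.12% of tested genes were called, that is had an adjusted p under 0.05, 0.978% as higher (192 genes) and 0.143% as lower (28 genes), with a median of 0.017 over all genes. Of the 4 NDRG genes 1 was called, as higher. Among the 192 called rises, NDRG1 was in place 18 by size, and 17 of them had a smaller p.

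The NDRG1 call depended on which libraries entered. Without the 3 hypoxic libraries that stood apart, its difference was 3.16 on the log2 scale and its adjusted p 0.0903. It kept a difference of 3.77 to 4.78 when any 1 library was left out, but the adjusted p rose to 0.0649 without A375 normoxia 1, 0.0723 without A375 normoxia 2, 0.0509 without SKMEL-5 normoxia 1 and 0.0615 without SKMEL-5 normoxia 2.

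**Figure D1:**
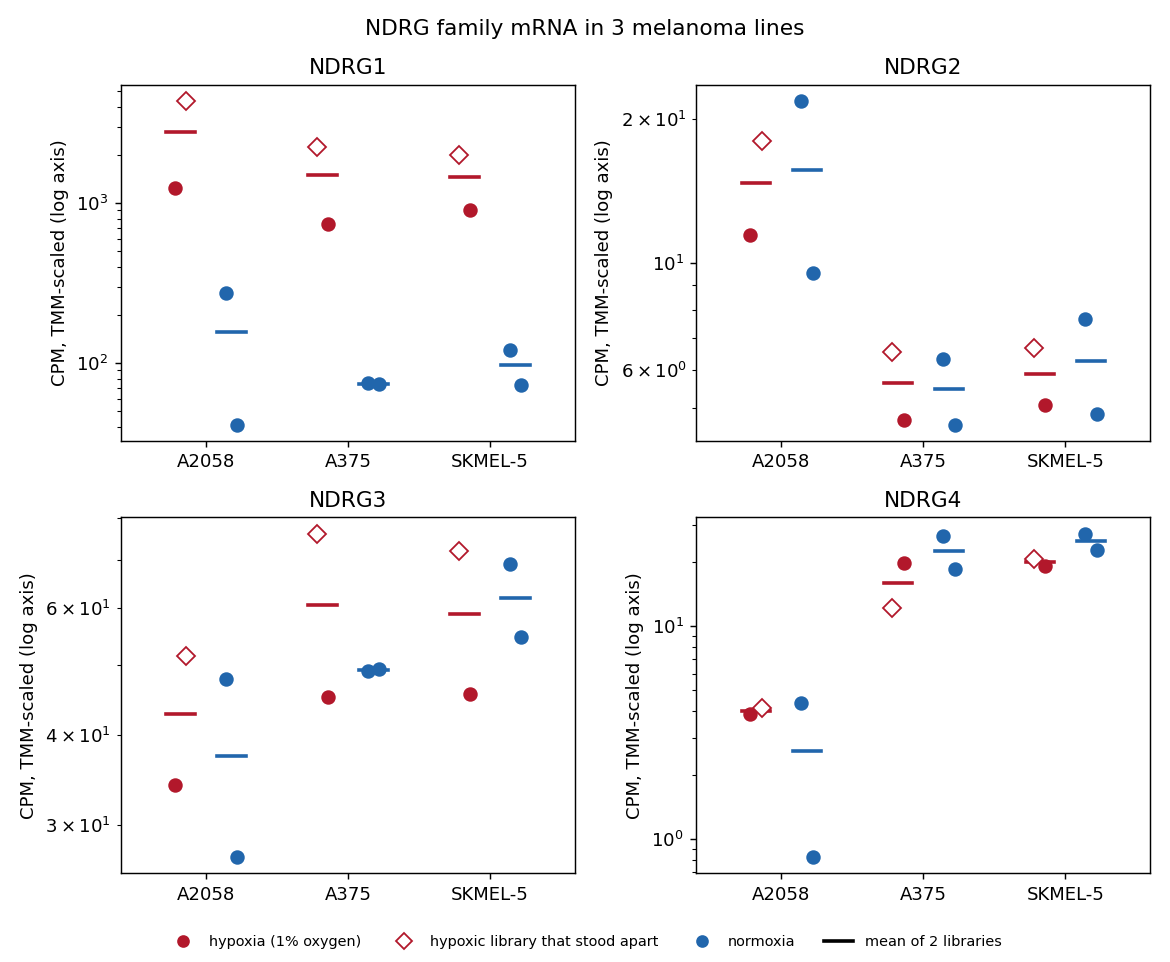
TMM-scaled CPM (log axis, a scale of its own in each panel) of the 4 NDRG genes in each library of A2058, A375 and SKMEL-5, with hypoxia in red and normoxia in blue; open diamonds are the hypoxic libraries that stood apart and bars are means of 2 libraries. NDRG1 ran from 743 to 4332 CPM in hypoxia against 41.3 to 273 CPM in normoxia, while the hypoxic and normoxic points of NDRG2 and NDRG3 overlapped in every line.

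On a per-length scale (TPM, counts divided by merged exon length and scaled to a common total), NDRG1 had 303 to 1434 TPM in hypoxia against 15.5 to 62.7 TPM in normoxia. It ranked between 84 and 511 of 19891 protein-coding genes in the hypoxic libraries, against 1450 to 7087 in the normoxic ones. In the hypoxic libraries NDRG1 took 0.0747% to 0.361% of all counts, against 0.00443% to 0.0267% in the normoxic ones. In these bulk libraries, more NDRG1 mRNA in every cell and a larger share of cells with a high level cannot be told apart.

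Within single lines the NDRG1 difference lay between 3.91 and 4.33 and did not pass the test, which called few genes of any kind. The log2 difference of NDRG1 (hypoxia minus normoxia, ± SE) was 4.15 ± 0.97 for A2058 cells, 4.33 ± 0.98 for A375 cells and 3.91 ± 0.96 for SKMEL-5 cells. With edgeR the adjusted p was 0.269 for A2058, 0.708 for A375 and 0.664 for SKMEL-5, so NDRG1 was not called in any single line. The same test called 2 genes (0.0102%) for A2058, 0 genes (0.0%) for A375 and 0 genes (0.0%) for SKMEL-5. At an unadjusted p under 0.05, 1798 genes (9.16%) passed for A2058, 1100 (5.6%) for A375 and 1283 (6.53%) for SKMEL-5, and DESeq2 called 372, 119 and 120 genes. NDRG1 had an unadjusted p of 0.00133 for A2058, 0.00104 for A375 and 0.00187 for SKMEL-5 in edgeR's test.

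An F test of whether the 3 lines responded equally gave an adjusted p of 1.0 for each NDRG gene in edgeR, with unadjusted p-values of 0.941 for NDRG1, 0.978 for NDRG2, 0.805 for NDRG3 and 0.409 for NDRG4. That test called 0 genes (0.0%), 315 genes (1.6%) had an unadjusted p under 0.05, and DESeq2 called 14. It does not show that the lines responded alike.

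**Figure D2:**
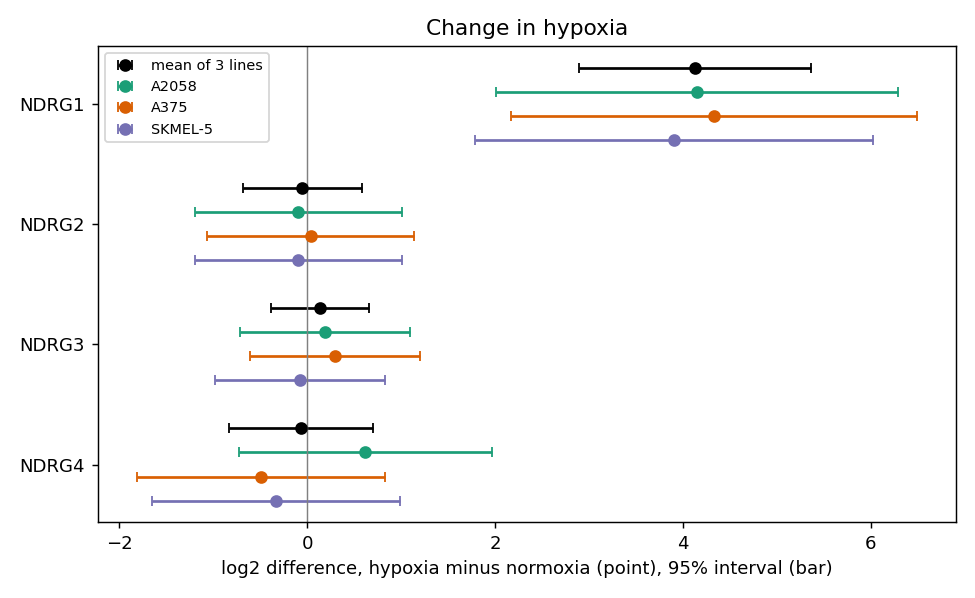
Log2 difference between hypoxia and normoxia (point) with its 95% interval (bar) for each NDRG gene, as the mean of the 3 lines and for each line alone. The 3-line interval of NDRG1 ran from 2.89 to 5.36, and those of NDRG2, NDRG3 and NDRG4 spanned 0.

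NDRG2 was low in every library, and no difference between oxygen conditions passed the test. It had 11.4 and 17.9 CPM in A2058 hypoxia, against 21.8 and 9.55 CPM in A2058 normoxia. In A375 it had 6.52 and 4.73 CPM in hypoxia, against 6.33 and 4.62 CPM in normoxia. In SKMEL-5 it had 6.68 and 5.07 CPM in hypoxia, against 7.66 and 4.86 CPM in normoxia. Hypoxic and normoxic libraries overlapped in all 3 lines. The 3-line mean difference was -0.05 ± 0.29 on the log2 scale (SE, edgeR's adjusted p = 0.965), and its 95% interval allowed a 0.622- to 1.503-fold change. NDRG2 rested on 195 to 848 counts per library.

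NDRG3 mRNA was at intermediate levels, and no difference between oxygen conditions passed the test. It had 34.1 and 51.5 CPM in A2058 hypoxia, against 47.8 and 27.1 CPM in A2058 normoxia. In A375 it had 76.1 and 45.2 CPM in hypoxia, against 49.0 and 49.4 CPM in normoxia, and in SKMEL-5 72.0 and 45.6 CPM in hypoxia, against 69.1 and 54.7 CPM in normoxia. The groups overlapped in every line, and the library that stood apart was the highest of its line in each case. The 3-line mean difference was 0.14 ± 0.24 (log2, SE, edgeR's adjusted p = 0.788), with an interval of 0.767- to 1.58-fold. Without the 3 hypoxic libraries that stood apart its sign turned, to -0.25. On the TPM scale A2058 had 46.1 and 51.5 TPM of NDRG3 in hypoxia, against 33.2 and 30.8 TPM in normoxia. The overlap seen in TMM-scaled CPM in that line was not present there. The same held in A2058 for NDRG2 (6.655 and 7.725 against 6.503 and 4.676 TPM). It also held for NDRG4 (1.765 and 1.395 against 1.026 and 0.3164 TPM), so it was not particular to NDRG3. The share of all genes without overlap on the TPM scale is not given here. The separation on that scale is therefore not read as a result about the members. Within a gene the exon length is the same in every library, so the scales differ only in how libraries are scaled.

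NDRG4 differed between lines, and no difference between oxygen conditions passed the test. It had 3.87 and 4.14 CPM in A2058 hypoxia, against 4.39 and 0.826 CPM in A2058 normoxia. In A375 it had 12.2 and 19.9 CPM in hypoxia, against 26.6 and 18.5 CPM in normoxia, and in SKMEL-5 20.8 and 19.2 CPM in hypoxia, against 27.3 and 22.9 CPM in normoxia. Both hypoxic SKMEL-5 libraries lay below both normoxic ones, as did those of 19.7% of tested genes in that line, while the groups overlapped in A2058 and A375. The 3-line mean difference was -0.07 ± 0.35 (log2, SE, edgeR's adjusted p = 0.955), with an interval of 0.561- to 1.62-fold, and its sign turned when single libraries were left out (0.49 without A2058 normoxia 1). The NDRG4 differences within lines were 0.62 ± 0.61 for A2058, -0.49 ± 0.60 for A375 and -0.33 ± 0.60 for SKMEL-5, none of them called.

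Averaged over both oxygen conditions, NDRG4 and NDRG2 differed between lines in opposite directions. NDRG4 was higher in A375 than in A2058 by 2.56 ± 0.45 (log2, SE, 5.88-fold, edgeR's adjusted p = 0.00164) and higher in SKMEL-5 than in A2058 by 2.79 ± 0.45 (6.92-fold, edgeR's adjusted p = 0.00102). NDRG2 was lower in A375 than in A2058 by 1.45 ± 0.36 on the log2 scale (a difference of -1.45, edgeR's adjusted p = 0.0120) and lower in SKMEL-5 than in A2058 (-1.32 ± 0.36, edgeR's adjusted p = 0.0190). The A375 comparison with A2058 called 27.6% of tested genes, 14.2% as higher and 13.4% as lower, and the SKMEL-5 comparison with A2058 called 26.8%, 13.9% as higher and 12.9% as lower, so a call between these lines was common. The 2 comparisons share the A2058 libraries.

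For NDRG1 the same differences were -0.99 ± 0.61 (A375 minus A2058) and -0.82 ± 0.61 (SKMEL-5 minus A2058), and for NDRG3 0.45 ± 0.29 and 0.59 ± 0.29, none of them called. Between the libraries labelled SKMEL-5 and those labelled A375 the differences of the 4 genes lay between 0.13 and 0.24, each with an adjusted p of 1.0 in edgeR, in a comparison that called 2 genes (0.0102%). Their 95% intervals allowed a 0.447- to 2.83-fold difference for NDRG1 and a 0.618- to 2.25-fold difference for NDRG4.

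The NDRG4 calls held when any 1 library was left out, with differences of 2.19 to 3.37 for A375 and 2.42 to 3.61 for SKMEL-5. The NDRG2 calls were less firm: the A375 call was lost without A2058 normoxia 1 (-1.10, adjusted p = 0.0608) or A375 normoxia 2 (-1.34, adjusted p = 0.0613). The SKMEL-5 call of NDRG2 was lost without A2058 hypoxia 2 (-1.14), A2058 normoxia 1 (-0.97), SKMEL-5 hypoxia 2 (-1.22) or SKMEL-5 normoxia 2 (-1.17), with adjusted p-values of 0.0662 to 0.0918.

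**Figure D3:**
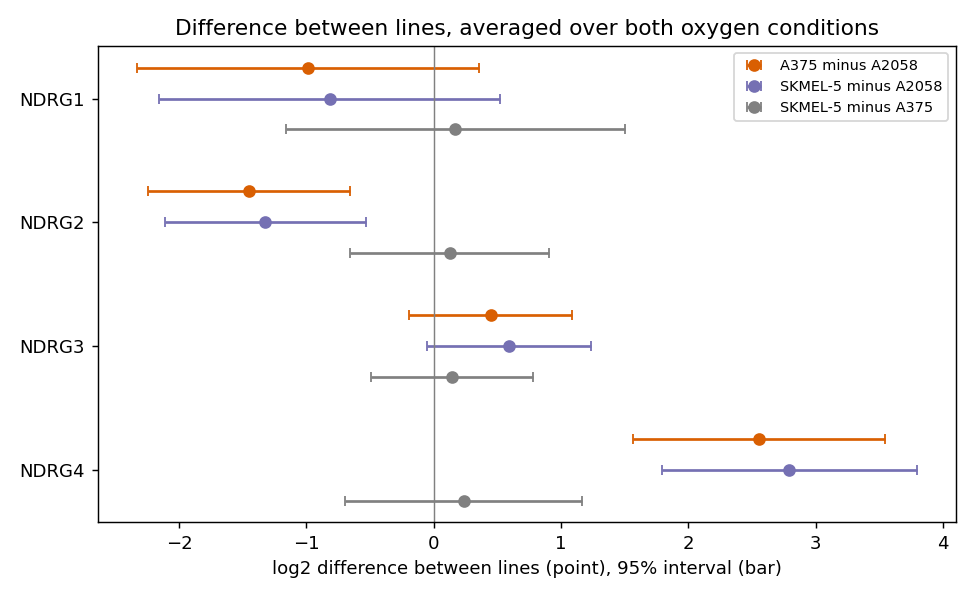
Log2 differences between lines, averaged over hypoxia and normoxia (point, with 95% interval as a bar), for each NDRG gene: A375 minus A2058, SKMEL-5 minus A2058 and SKMEL-5 minus A375. The intervals of NDRG2 lay below 0 and those of NDRG4 above 0 in both comparisons with A2058, and every interval of SKMEL-5 minus A375 spanned 0.

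The order of the members within a library could be read only per length. With counts divided by merged exon length (9823 bases for NDRG1, 7550 for NDRG2, 3248 for NDRG3 and 9647 for NDRG4), NDRG1 made up 82.0% to 95.9% of the summed family level in hypoxic libraries (median 89.5%), against 27.3% to 60.6% in normoxic libraries (median 30.0%). NDRG3 made up 3.45% to 15.1% in hypoxia (median 9.46%), against 32.1% to 61.6% in normoxia (median 58.7%). Every hypoxic library lay above every normoxic one for the NDRG1 share and below every normoxic one for the NDRG3 share, although no change of the NDRG3 level itself passed the test. NDRG2 held 0.340% to 1.10% in hypoxia against 2.35% to 9.11% in normoxia, and NDRG4 0.0933% to 2.23% against 0.616% to 10.5%.

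NDRG1 was the highest member in 6 of 6 hypoxic libraries whichever length was used. In normoxia the order rested on the length. NDRG3 was highest in 5 of 6 normoxic libraries with merged exons, while NDRG1 was highest in 6 of 6 with the transcript of the longest coding sequence (3755 bases for NDRG1 and 2978 for NDRG3), with a median NDRG1 share of 46.2%. NDRG2 and NDRG4 were the highest member in 0 libraries.

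**Figure D4:**
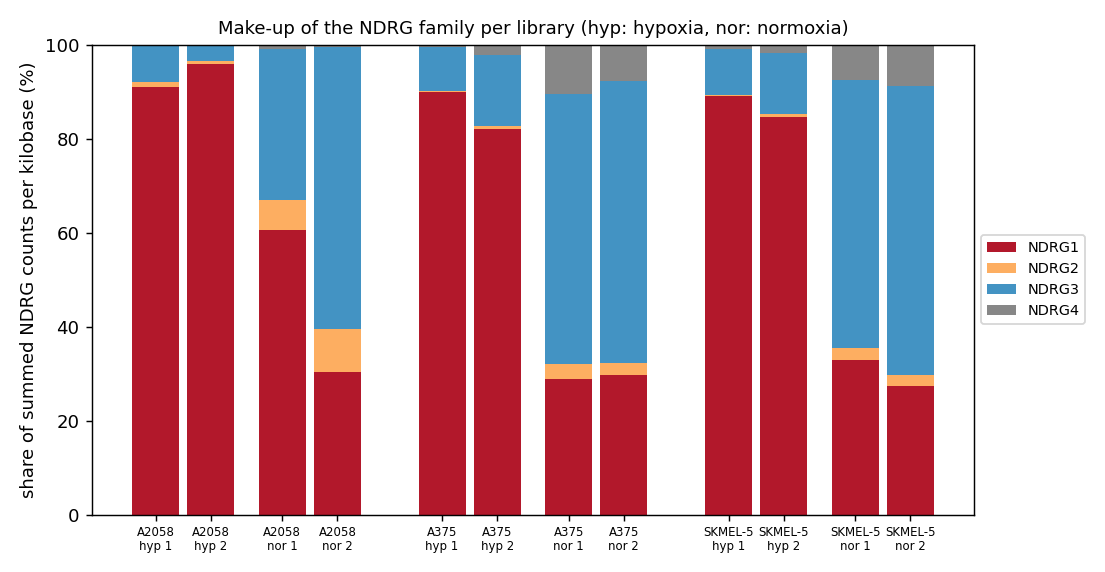
Share of each NDRG gene (%) in the summed family level of each library, from counts per kilobase of merged exons, for hypoxia (hyp) and normoxia (nor) in A2058, A375 and SKMEL-5. NDRG1 filled at least 82.0% of every hypoxic bar and at most 60.6% of any normoxic bar.

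The hypoxic duplicates differed more in NDRG1 than in the other members. In hypoxia the library that stood apart had 3.51 times as much NDRG1 as the other (A2058), 3.02 times as much (A375) and 2.21 times as much (SKMEL-5) (ratios of CPM). A ratio at least as high was found for 2.55% of tested genes with the A2058 libraries, 10.1% with those of A375 and 11.5% with those of SKMEL-5. The same ratio was 1.32 to 1.57 for NDRG2, 1.51 to 1.68 for NDRG3 and 0.612 to 1.08 for NDRG4. Ratios at least as high were found for 20.2% to 32.0%, 22.1% to 24.5% and 40.9% to 69.6% of tested genes. Thus 3 members were higher in all 3 libraries that stood apart and NDRG4 was not. The share of all genes higher in all 3 is not given here, so this count is not read as a result about the members. CA9, a carbonic anhydrase and standard hypoxia marker, had ratios of 2.0 for A2058, 0.86 for A375 and 0.527 for SKMEL-5. It was thus not raised in every library that stood apart.

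In normoxia, A2058 replicate 1 had 6.6 times the NDRG1 of replicate 2 and 5.31 times the NDRG4 (30 counts in replicate 2). The NDRG1 ratio was reached by 0.957% of tested genes. The NDRG1 ratio of replicate 1 over replicate 2 was 1.01 in A375 normoxia and 1.64 in SKMEL-5 normoxia. CA9 ran from 352 to 725 CPM in the hypoxic libraries, against 0.0826 to 19.0 CPM (median 2.86) in the normoxic ones. Its lowest normoxic level, in A2058 replicate 2, is under the highest limit of a count of 0, so no CA9 ratio is given for A2058 normoxia. The CA9 ratio of replicate 1 over replicate 2 was 6.1 in A375 normoxia and 44.1 in SKMEL-5 normoxia. These were reached by 0.423% and 0.0204% of tested genes. The median log2 ratio of the HIF target genes was 0.69 (A2058), 0.10 (A375) and 0.515 (SKMEL-5) in normoxia. Over all tested genes it was 0.039, 0.020 and 0.0075. The part of this spread in the hypoxia comparison was not tested.

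**Figure D5:**
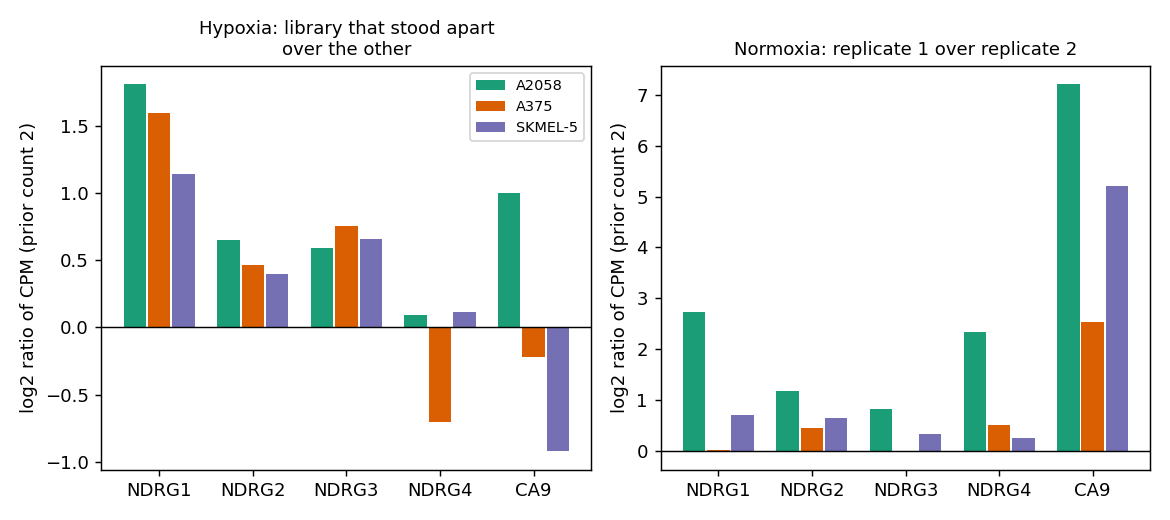
Log2 ratios of CPM (with a prior count of 2) between the duplicates of each line for the 4 NDRG genes and CA9: left, the hypoxic library that stood apart over the other hypoxic library; right, normoxic replicate 1 over replicate 2. NDRG1, NDRG2 and NDRG3 were above 0 in all 3 lines on the left, where CA9 was above 0 in A2058 and below 0 in A375 and SKMEL-5. The CA9 points on the right depend on the prior count.

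The genes around the family were described by lists of known regulators, kinases and partners. In the 3-line mean, 20 of 28 tested HIF target genes were called higher and 0 lower in hypoxia, against 0.978% and 0.143% of all tested genes. Their median log2 difference was 2.07 against 0.017 over all genes. P4HA2 (2.32 ± 0.25, adjusted p = 0.00460) and P4HA1 (2.67 ± 0.37, adjusted p = 0.0110), which hydroxylate collagen, and ADM, the peptide hormone adrenomedullin (3.55 ± 0.49, adjusted p = 0.0113), were those with the smallest p in edgeR. NDRG1, with 4.13, lay above all 3, which were picked by p and not by size. CA9, called on the same list, rose more than NDRG1 (6.77 ± 1.18, edgeR's adjusted p = 0.0257). In the mean of A2058 and SKMEL-5, P4HA1 and ADM were not called (edgeR's adjusted p = 0.0564 and 0.0568). With 1 library left out in turn, the call was kept in 12 of 12 fits for P4HA2, in 9 of 12 for P4HA1 (adjusted p up to 0.0671) and in 8 of 12 for ADM (up to 0.0640), and each loss was without a normoxic A375 or SKMEL-5 library. Without the 3 hypoxic libraries that stood apart, 6 of the 28 were called and the median was 1.63.

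Among the oxygen-sensing factors, 2 of 9 tested genes were called, both as higher, against 1.12% of all tested genes. EPAS1, which encodes HIF-2 alpha, rose by 2.75 ± 0.48 (edgeR's adjusted p = 0.0267) and EGLN1, which encodes the NDRG3 hydroxylase PHD2, by 1.44 ± 0.27 (edgeR's adjusted p = 0.0322). HIF1A differed by 0.48 ± 0.25 (adjusted p = 0.320) and VHL, the HIF ubiquitin ligase component, by -0.18 ± 0.19 (adjusted p = 0.631). Neither rise was called without the 3 hypoxic libraries that stood apart (adjusted p = 0.162 for EPAS1 and 0.123 for EGLN1). With 1 library left out in turn, the call was kept in 4 of 12 fits for EPAS1 (adjusted p up to 0.134) and in 5 of 12 for EGLN1 (up to 0.161), and neither was called in a mean of A2058 and only 1 of the other lines. EPAS1 was also not called with limma-voom (adjusted p = 0.0631). EGLN1 is also in the HIF target list.

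Of the transcriptional regulators reported for NDRG genes, 0 of 15 tested were called in edgeR, with a median of 0.21, while 5 had an unadjusted p under 0.05 and DESeq2 called 1. In the 3-line mean DESeq2 called 1543 genes in all. The share of all genes with an unadjusted p under 0.05 is not given here. Counts of these kinds, in this and the following lists, are therefore not read as results about a list. ATF4, a stress response factor, differed by 1.29 ± 0.41 (edgeR's adjusted p = 0.142). It was called with DESeq2 (adjusted p = 0.0273), with no low-count filter (7.41e-05) and without A375 hypoxia 2 (0.0319), and differed by 0.46 without the 3 libraries that stood apart. MYC differed by 0.91 ± 0.42 (edgeR's adjusted p = 0.268) and was called with no low-count filter (0.0210) and without A375 hypoxia 2 (0.0256). It had 280 CPM in A375 hypoxia 1 and 32.2 CPM in A375 hypoxia 2. The MYC difference was 0.16 without A375 hypoxia 1 and 0.080 without the 3 libraries that stood apart. MYCN, the repressor that gave the family its name, had at most 3 counts in any library and was not tested. Of the kinases of NDRG1 and NDRG2, 0 of 9 were called in edgeR, with a median of -0.04, while 2 had an unadjusted p under 0.05 and DESeq2 called 1. SGK1, which phosphorylates NDRG1, differed by -0.29 ± 0.20 (adjusted p = 0.451).

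Of 12 genes of the lactate and ERK axis, through which NDRG3 protein is described to act, 1 was called, against 1.12% of all tested genes. That gene, LDHA, is also in the HIF target list. LDHA, the lactate dehydrogenase subunit that makes lactate, rose by 1.46 ± 0.23 (edgeR's adjusted p = 0.0168). The list median was 0.36. Without the 3 hypoxic libraries that stood apart, LDHA had an adjusted p of 0.139. Its call was also lost with the replicate block (1.46, adjusted p = 0.0632) and in both means of A2058 with 1 other line, and it was kept in 6 of 12 fits with 1 library left out (adjusted p up to 0.104).

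Of 13 tested effectors and partners of NDRG1, 0 were called in edgeR, with a median of 0.17, while 3 had an unadjusted p under 0.05 and DESeq2 called 1. ATF3, a stress-induced transcription factor, had the smallest p (2.14 ± 0.66, edgeR's adjusted p = 0.136). It was called with DESeq2 (2.16, adjusted p = 0.00923), with no low-count filter (5.08e-11) and without A375 hypoxia 2 (2.44, 0.0281). ATF3 had 235 CPM in A375 hypoxia 1 and 120 CPM in SKMEL-5 hypoxia 1, the libraries that stood apart, and 16.1 and 13.7 CPM in the other hypoxic library of each. Without the libraries that stood apart it differed by 0.61 (adjusted p = 0.416). CDH1, the adhesion protein E-cadherin that NDRG1 is reported to help recycle, had 0 to 2 counts in every A375 and SKMEL-5 library, and its levels there were at or under the limit of a count of 0. Of 9 iron-responsive genes 1 was called, against 1.12% of all tested genes. TF, the iron carrier transferrin, rose by 3.83 ± 0.49 (edgeR's adjusted p = 0.00883). TFRC, the transferrin receptor, differed by -0.29 ± 0.72 (adjusted p = 0.871), and the list median was 0.09. Without the 3 libraries that stood apart TF had an adjusted p of 0.0911, and its call was kept in 9 of 12 fits with 1 library left out (up to 0.0632).

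The lists of other cell types held 0 calls in edgeR: 0 of 10 melanocytic, 0 of 7 myelin, 0 of 9 fibroblast, 0 of 4 keratinocyte and 0 of 4 blood cell genes tested. At an unadjusted p under 0.05 in edgeR they held 1, 2, 5, 2 and 0 genes, and DESeq2 called 1, 2, 4, 1 and 0. No share over all genes stands beside these counts, and they are not read as results about a list. The smallest p-values of the last 3 lists belonged to FAP (1.56 ± 0.47, adjusted p = 0.130), SFN (1.77 ± 0.54, adjusted p = 0.131) and CD14 (-1.21 ± 0.58, adjusted p = 0.287), all from edgeR. FAP and SFN were called with DESeq2 (adjusted p = 0.0138 and 0.0116) and with no low-count filter (0.00593 and 0.00763). The fibroblast list had a median of 0.87, the keratinocyte list 0.68, the melanocytic list 0.48, the blood cell list 0.22 and the myelin list -0.05.

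The genes whose log2 CPM followed each member most closely over the 12 libraries differed between members. For NDRG1 they included NRN1 (Pearson r = 0.976) and DDIT4 (0.973). NRN1 had 211 and 1290 CPM in A2058 hypoxia against 51.9 and 6.28 CPM in A2058 normoxia, so it also shared the order of the duplicates with NDRG1. For NDRG2 they were FAHD2A (0.982), SEPTIN4 (0.979) and NRTN (0.973), for NDRG3 SWI5 (0.964), SPATC1L (0.961) and LCMT1 (0.960), and for NDRG4 MMRN2 (0.962), TMPRSS5 (0.961) and PTN (0.958). Several of these genes were low. MMRN2 had at most 0.692 CPM in any library and 0 to 0.103 CPM in A2058, close to the limit of a count of 0. PTN fell to 0.11 CPM (A2058 normoxia 2), SEPTIN4 to 0.295 CPM (A375 hypoxia 2) and NRTN to 0.539 CPM (SKMEL-5 hypoxia 2). The points share libraries, lines and oxygen conditions, and the r values are a description.

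With each line's mean subtracted, 0 of the 3 closest genes stayed the same for any member. For NDRG1 they were then TF (0.985), ESPN (0.984) and DHX40 (0.983). NRN1 and DDIT4 lost their places for NDRG1, but their r values were still 0.979 and 0.973. The genes named above for the other members had r = 0.89 to 0.92 (NDRG2), 0.94 to 0.95 (NDRG3) and 0.78 to 0.81 (NDRG4) after this step. NDRG2 and NDRG3 correlated at -0.22 over the 12 libraries and at 0.85 after each line's mean was subtracted. NDRG1 correlated with NDRG2 at 0.26, with NDRG3 at 0.33 and with NDRG4 at -0.0035 over the 12 libraries.

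RefSeq promoter windows, 250 bases before to 50 after an annotated start on GRCh38.p14, were used for NDRG2 (5 windows) and NDRG4 (4 windows). One window of each is shown because no hypoxia difference of either gene passed the test. Each was searched on both strands for the core letters ACGTG or GCGTG of the HIF binding motif, which 48.4% of 35116 promoter windows hold. Of the NDRG2 windows 3 of 5 held a match, but 2 of them overlap (chr14:21025056-21025355 and chr14:21025012-21025311) and hold the same GCGTG, so these are 2 distinct matches, and of the NDRG4 windows 1 of 4 held one. The windows below lie at chr14:21025056-21025355 on the minus strand (NDRG2), with GCGTG 75 bases before the start, and at chr16:58463465-58463764 on the plus strand (NDRG4), with 4 matches 163, 79, 71 and 17 bases before the start. Capitals mark the matches, and in the NDRG4 window GCGTG lies on the opposite strand and so reads CACGC.
NDRG2: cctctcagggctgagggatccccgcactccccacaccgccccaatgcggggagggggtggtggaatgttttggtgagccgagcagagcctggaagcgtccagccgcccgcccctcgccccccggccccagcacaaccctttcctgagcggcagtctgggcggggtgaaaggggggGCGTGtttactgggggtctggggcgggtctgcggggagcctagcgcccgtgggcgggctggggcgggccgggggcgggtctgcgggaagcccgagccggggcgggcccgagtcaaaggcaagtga
NDRG4: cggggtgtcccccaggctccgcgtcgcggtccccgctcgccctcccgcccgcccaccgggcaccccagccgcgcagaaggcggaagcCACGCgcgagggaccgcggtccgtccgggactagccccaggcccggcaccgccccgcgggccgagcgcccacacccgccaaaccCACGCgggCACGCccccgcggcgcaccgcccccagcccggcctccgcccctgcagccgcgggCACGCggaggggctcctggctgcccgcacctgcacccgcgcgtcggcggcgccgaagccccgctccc
A match in these letters is a description of the window and not a binding site. NDRG1 and NDRG3 are named without a window.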

How the data were processed

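Raw gene counts, deposited by the authors as a single table without normalization, were the only measurements. The submitters' processing notes list the GRCh38 build and the tools STAR (2.5.0a), Trim Galore (0.6.1) and bcl2fastq (2.20), without their roles. The read counter, its handling of strand and its gene annotation were not given in the sources used here. Columns carry the sample titles, which name line, condition and replicate. A reference table of gene names matched 60401 of 60656 IDs to a symbol, and GENCODE 29 placed 58438.

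In R 4.3.3, edgeR 4.0.16 kept 19636 genes (filterByExpr, minimum count 10, minimum total 15), scaled libraries by TMM and fitted a quasi-likelihood model with 1 mean for each of 6 groups to all 12 libraries (6 residual degrees of freedom, common biological coefficient of variation 0.453). p-values were adjusted by the Benjamini-Hochberg method across all tested genes, with calls made under 0.05. CPM values are TMM-scaled, and log2 CPM used a prior count of 2. TPM and family shares used merged exon lengths of GENCODE 29. The fit was tested on simulated data. DESeq2 1.42.0 and limma 3.58.1 (voom) served as alternatives.

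The members and gene lists were chosen with earlier results of these data known. The named genes were the 4 members, up to 3 called genes per direction of each list or its smallest-p gene where none was called, 11 genes of known NDRG biology, the 3 genes most like each member, and genes overlapping a member. Some genes that this rule picked are not reported here. CA9, the lineage markers and the genes closest after line means were subtracted were added after their values were seen.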

Additional observations from a re-analysis of the deposited data

How the results depend on the processing

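Over every alternative run, NDRG1 stayed higher in hypoxia in the 3-line mean (3.16 to 4.78, log2). Its call was lost without the 3 hypoxic libraries that stood apart, an alternative chosen after seeing the data (3.16), in the mean of A2058 and SKMEL-5 (4.03), and without either normoxic library of A375 or of SKMEL-5 in turn (3.77 to 4.78 over all 12 left-out libraries). Within A2058, A375 and SKMEL-5, NDRG1 was called with DESeq2 (4.16, 4.34 and 3.94) and with no low-count filter (4.14, 4.29 and 3.95). With no low-count filter the NDRG1 difference of A375 minus A2058 was also called (-0.96). Causes were not tested.

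The labels give a replicate number and do not say whether same-numbered libraries were handled together. The correlation of replicate differences between the conditions was -0.30 for A2058, 0.23 for A375 and 0.26 for SKMEL-5, which does not settle it. With a replicate block within each line, NDRG1 had 4.13 (adjusted p = 0.0301) in the 3-line mean. The block ended the calls between lines for NDRG2 (A375 minus A2058 -1.37, SKMEL-5 minus A2058 -1.21) and for NDRG4 in A375 minus A2058 (2.05), but not for NDRG4 in SKMEL-5 minus A2058 (2.42). It also ended the LDHA call in the 3-line mean (1.46, adjusted p = 0.0632).

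Leaving out the 3 libraries that stood apart, NDRG2 turned to -0.25 in A375, and NDRG3 turned to -0.25 in the 3-line mean, -0.15 in A2058 and -0.16 in A375. TFRC turned to 0.46, and NDRG2 in SKMEL-5 minus A2058 (-1.27) was no longer called. NDRG4 in the 3-line mean turned to 0.072 with limma-voom, 0.062 with the replicate block, 0.062 in the mean of A2058 and A375 and 0.14 in the mean of A2058 and SKMEL-5. SGK1 turned to 0.017 in the mean of A2058 and A375. None of the turned values was called.

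With 1 library left out in turn, NDRG2 ranged from -0.21 to 0.20 in the 3-line mean, from -0.56 to 0.60 in A2058, from -0.25 to 0.27 in A375 and from -0.38 to 0.32 in SKMEL-5. NDRG3 ranged from -0.15 to 0.64 in A2058, from -0.16 to 0.62 in A375 and from -0.44 to 0.22 in SKMEL-5. NDRG4 ranged from -0.32 to 0.49 in the 3-line mean and from -0.12 to 2.26 in A2058, and TFRC from -1.40 to 0.11. Between lines, NDRG2 ranged from -1.68 to -1.10 (A375 minus A2058), from -1.56 to -0.97 (SKMEL-5 minus A2058) and from -0.052 to 0.27 (SKMEL-5 minus A375). NDRG1 ranged from -1.21 to 0.15 (SKMEL-5 minus A2058) and from -0.20 to 0.70 (SKMEL-5 minus A375), and NDRG3 from -0.064 to 0.38 (SKMEL-5 minus A375).

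The number of called genes moved far more than the NDRG1 difference. In the 3-line mean, 220 genes were called in edgeR, against 1543 with DESeq2, 1855 with no low-count filter, 91 with the replicate block, 30 without the 3 libraries that stood apart, 48 in A2058 and A375 and 34 in A2058 and SKMEL-5. Leaving out 1 library gave 15 (either A375 normoxia library) to 1120 genes (A375 hypoxia 2), and within 1.5 times 220 only without A375 hypoxia 1 or SKMEL-5 hypoxia 2. In A2058, 2 genes were called, against 372 with DESeq2, 10 with limma-voom, 397 with no filter, 1 at 1 CPM in 2 libraries, 0 with the block, 0 without the libraries that stood apart, 0 in a fit of its own 4 libraries and 0 to 13 with 1 library left out. In A375, 0 genes were called, against 119 with DESeq2, 384 with no filter and 0 to 8 with 1 library left out. In SKMEL-5, 0 genes were called, against 120 with DESeq2, 350 with no filter, 2 in a fit of its own 4 libraries and 0 to 1 with 1 library left out. NDRG1 rested on at least 1500 counts in every library, and NDRG4 on as few as 30 (A2058 normoxia 2).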
